A study of Mus musculus with 2 samples.

Results

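The guanylate-binding proteins (GBPs) are large GTPases encoded in the mouse by the Gbp genes, and 9 of them (Gbp2, Gbp2b, Gbp3, Gbp4, Gbp5, Gbp6, Gbp7, Gbp8 and Gbp9) were followed here between T cells cultured with and without added interferon-gamma. Their probes were found through the RefSeq accession that the scanner output gives for each probe, with older symbols counted (Gbp2b was Gbp1, and Gbp4 was Mpa2). All 9 genes had a probe, and 11 probes in all read them, out of 18434 named genes and 41171 probes. Gbp8 and Gbp9 had 2 probes each and the other members 1, each printed as 1 spot. All 11 probes were well above background on both arrays.

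Splenic CD4 T cells of the inbred mouse strain C57BL/6 had been sorted with magnetic beads to over 98% purity. They were stimulated through the T cell receptor and CD28 for 2 days and kept for 3 more, 5 days in all. Both cultures received TGF-beta at 3 ng/ml. The Th9+IFNgamma culture also held 10 ng/ml of interferon-gamma and 3 ng/ml of IL-4. The Th9 culture held no added interferon-gamma but 10 ng/ml of IL-4 and a blocking antibody to interferon-gamma at 1 µg/ml. The conditions thus differed in added interferon-gamma, in the antibody that neutralises it and in the IL-4 dose, and these cannot be told apart. The Th9 level of a gene is a level under interferon-gamma blockade, not that of an untreated cell. The cells were wild type, and how many mice went into a culture is not given in the labels. There was 1 single-colour array for each condition. No value has a replicate, no test was possible, and differences are described by size against a 2-fold threshold.

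GBPs belong to the dynamin superfamily. Interferon-gamma acts through its receptor and the kinases JAK1 and JAK2. Promoters that answer to it can hold GAS elements and elements of the ISRE type, which the transcription factor IRF1 binds. GBP genes are textbook targets of this pathway, and their products assemble on bacteria and on the vacuoles of parasites and help to start inflammasome responses. They are best known from macrophages, and they are induced in many other cell types.

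The signals printed here are linear and scaled so that the 75th percentile of all probes is the same on each array. A scaled signal compares the same probe between the arrays and never one gene with another, since probes differ in how well they bind. The error given with a log2 difference is the one that the extraction software attached to the signals, and it covers no variation between cultures.

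The RefSeq gene table for GRCm38.p6 places the members in a pair of clusters, with Gbp5, Gbp7, Gbp3, Gbp2b and Gbp2 in that order on chromosome 3 and no other protein-coding gene between them. Gbp8, Gbp9, Gbp4 and Gbp6 lie on chromosome 5, where Gbp10, which had no named probe, stands between Gbp4 and Gbp6. Promoter windows of 250 bases before to 50 bases after the start, also from RefSeq (GRCm38.p6), matched 5 of the 9 members, namely Gbp2, Gbp2b, Gbp3, Gbp5 and Gbp7, with 2 windows for Gbp3. They are shown because the members moved in the same direction and because the pathway acts through known DNA elements. A pair of GAAA letters with any 2 bases between them, the core of an ISRE or IRF-type element, was searched on both strands. This IRF-type match occurred in 5 of the 6 windows, covering all 5 genes, against 3.44% of all 32851 mouse promoter windows of the same length. The 5 genes are related neighbours in the chromosome 3 cluster, so their windows do not count as independent. No chromosome 5 member had a window, so the letters were not looked up there. In each of the stretches below, 30 bases from the plus strand, the match reads in capitals in its reverse orientation.

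Gbp2 (chr3:142620594-142620623, plus strand): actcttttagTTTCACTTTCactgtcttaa
Gbp2b (chr3:142594700-142594729, plus strand): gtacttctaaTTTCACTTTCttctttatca
Gbp3 (chr3:142559989-142560018, plus strand): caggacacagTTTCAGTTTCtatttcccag
Gbp5 (chr3:142496759-142496788, plus strand): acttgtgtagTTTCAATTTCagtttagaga
Gbp7 (chr3:142530273-142530302, plus strand): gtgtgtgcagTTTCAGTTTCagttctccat

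In all 5 of these matches the second of the 2 middle bases was a T, read in the direction of the GAAA letters. Such a stricter match was held by 0.791% of all windows. The T is named here from the same 5 matches, so this share is a description and no test of them. Counted from the start of transcription, the match began 59 bases upstream in Gbp2, 137 in Gbp2b, 45 in the first Gbp3 window, 165 in Gbp5 and 53 in Gbp7. Gbp3 held another, overlapping match of the looser kind that began 39 bases upstream.

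The GAS letters TTCNNNGAA, which read the same on both strands, occurred in the windows of Gbp5 and Gbp7, with 2 matches in each, and in 8.3% of all windows. No match in the other windows says only that these letters are not in those 300 bases. Both kinds of match stood together in 0.454% of all windows. The same letters TTC and GAA with 4 bases between them, the spacing bound by the IL-4 factor STAT6, occurred in 1 of the 6 windows, the second of Gbp3, and in 6.95% of all windows. The Gbp7 and Gbp2b windows are printed whole because these genes had the largest and the smallest difference in the chromosome 3 cluster, and capitals mark the matches of either kind. In the Gbp7 window the GAS matches come first and the IRF-type match last, and the IRF-type match is the only one in the Gbp2b window.

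Gbp7 (chr3:142530086-142530385, plus strand): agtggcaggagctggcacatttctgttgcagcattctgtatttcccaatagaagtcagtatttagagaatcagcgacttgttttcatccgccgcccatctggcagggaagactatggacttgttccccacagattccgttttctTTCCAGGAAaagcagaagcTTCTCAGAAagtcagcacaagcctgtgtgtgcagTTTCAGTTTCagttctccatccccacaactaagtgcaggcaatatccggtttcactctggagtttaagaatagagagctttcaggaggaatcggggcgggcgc
Gbp2b (chr3:142594597-142594896, plus strand): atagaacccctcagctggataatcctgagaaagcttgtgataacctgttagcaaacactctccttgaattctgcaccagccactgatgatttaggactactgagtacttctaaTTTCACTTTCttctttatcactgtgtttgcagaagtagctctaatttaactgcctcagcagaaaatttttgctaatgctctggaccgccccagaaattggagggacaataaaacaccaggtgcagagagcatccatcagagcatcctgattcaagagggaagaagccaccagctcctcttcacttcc

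**Figure D1:**
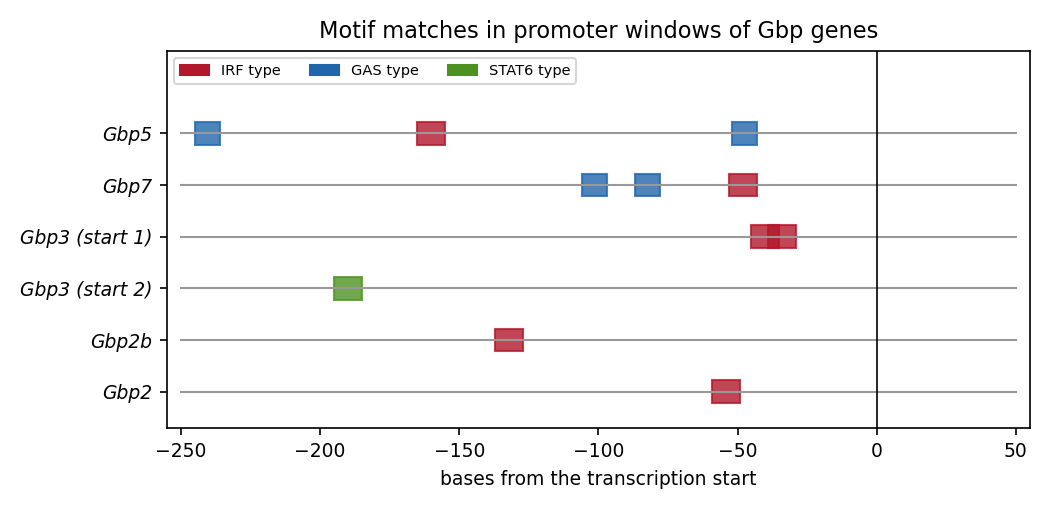
Positions of the motif matches in the 6 promoter windows of Gbp genes, with bases from the start of transcription on the horizontal axis (negative is upstream) and a row for each window, Gbp3 having 2. Red boxes are IRF-type matches, blue boxes GAS-type matches and green boxes STAT6-type matches, and 5 of the 6 windows hold a red box, at 165 to 30 bases upstream.

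The signals of all 9 members were higher on the Th9+IFNgamma array, by 2-fold or more for 8 of them and by 8-fold or more for 5. Among the 12272 named genes that both arrays measured above background, 5.15% reached 2-fold and 0.424% reached 8-fold in that direction. No member reached 2-fold in the other direction, which 7.42% of all measured genes did. The median log2 difference of the members was 3.66 (12.6-fold), against -0.01 over all measured genes. Member differences ran from 1.65-fold for Gbp8 to 59.8-fold for Gbp7. With normexp background correction, which dampens differences of dim probes, 7 of the 9 members were at least 2-fold higher.

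**Figure D2:**
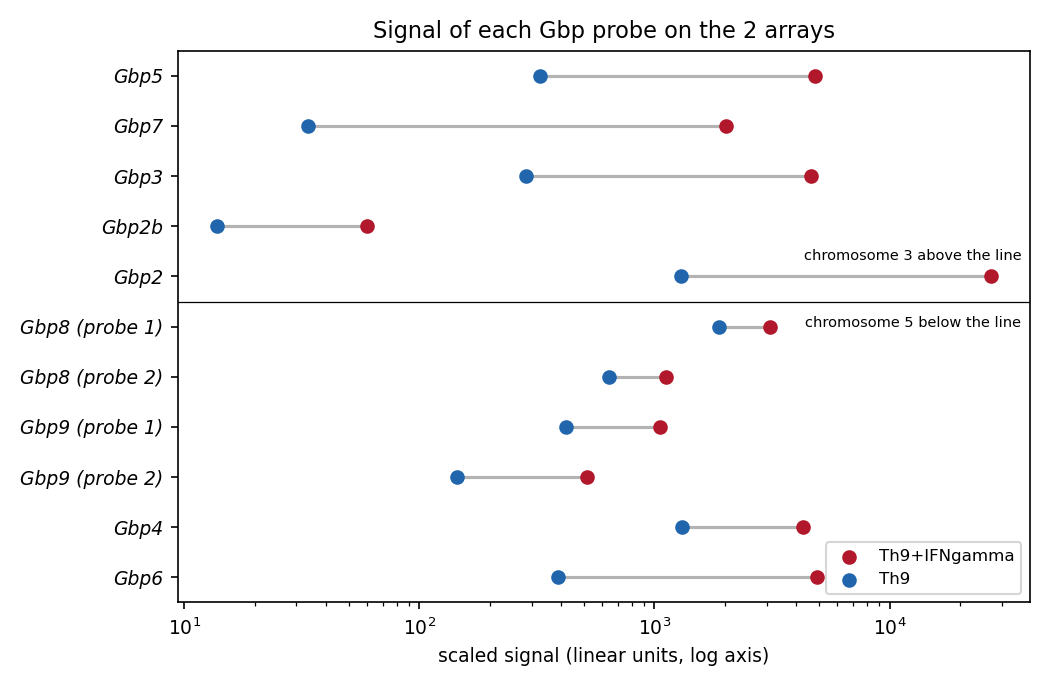
Scaled signal of each of the 11 Gbp probes (log axis) on the Th9+IFNgamma array (red) and the Th9 array (blue), in chromosomal order, with chromosome 3 members above the line and chromosome 5 members below it. Every red point lies to the right of its blue point, by 59.8-fold for Gbp7 and by 1.65-fold for the first Gbp8 probe.

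In the chromosome 3 cluster, Gbp2 read 26987 in Th9+IFNgamma against 1290 in Th9. That is a 20.9-fold difference (log2 4.39 ± 0.20), and Gbp2 was already well above its local background in the Th9 culture, with a spot median of 1433 over 49. Gbp2 carries a CaaX box at its C-terminus, through which a lipid anchor is attached, and it coats parasite vacuoles and bacteria in mouse cells. Under 12 alternative settings its difference stayed between 18.5-fold and 22.6-fold.

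Gbp5, another member with a CaaX box and known for its part in inflammasome activation, read 4835 in Th9+IFNgamma against 326 in Th9, or 14.8-fold higher (log2 3.89 ± 0.20). Gbp3 read 4644 in Th9+IFNgamma against 283 in Th9, or 16.4-fold higher (log2 4.03 ± 0.20). Gbp3 and Gbp5 differed from each other by 0.14 on the log2 scale, less than their combined error of 0.29. With normexp the log2 differences were 3.70 for Gbp3 and 3.62 for Gbp5.

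Gbp7 had the largest difference of the family, 2009 in Th9+IFNgamma against 33.6 in Th9, or 59.8-fold (log2 5.90 ± 0.23). Its Th9 spot was dim, with a median of 102 over a local background of 52. The fold was 39.8-fold when the local background was subtracted from the spot median and 20.2-fold with normexp. Gbp7 was the highest member in all 12 settings that measured it, the main one included, and its gap of 1.51 to Gbp2 was larger than 2 combined errors (1 being 0.31). With normexp that gap was 0.13, less than 1 combined error. GBP7 has been tied in mouse cells to the assembly of the phagocyte oxidase.

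Gbp2b, the gene once called Gbp1 and the third member with a CaaX box, was the dimmest reading. Its probe gave 60.1 in Th9+IFNgamma against 13.7 in Th9, a 4.37-fold difference (log2 2.13 ± 0.36). The Th9 value lay close to 12.5, the lowest scaled signal that was called well above background on that array. The spot medians were 126 in Th9+IFNgamma over a local background of 53, and 75 in Th9 over a local background of 52. The difference was 1.51-fold with normexp, below the 2-fold threshold, and 2.85-fold when the local background was subtracted from the spot median. Gbp7 and Gbp2b were the members that moved furthest with the way the background was removed.

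In the chromosome 5 cluster, Gbp6 read 4928 in Th9+IFNgamma against 390 in Th9, or 12.6-fold higher (log2 3.66 ± 0.20). It was the only one of the 4 members there that was at least 8-fold higher, and it stood beside Gbp5 in the order of differences, with a gap of 0.23 against a combined error of 0.29. Gbp6 and the neighbouring Gbp10 are near-identical in sequence, so that the probe may take up RNA of either. The sequences of the probes were not used here, and the same limit holds for close relatives elsewhere in the family.

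Gbp4 read 4269 in Th9+IFNgamma against 1304 in Th9, or 3.27-fold higher (log2 1.71 ± 0.20). Its Th9 spot was bright, at 1184 over a local background of 48, and the alternatives gave 3.17-fold to 3.54-fold. The products of Gbp4, Gbp6, Gbp8 and Gbp9 are less studied than those of the chromosome 3 cluster.

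The pair of probes for Gbp9 gave unequal differences. The brighter one read 1060 in Th9+IFNgamma against 420 in Th9 (2.52-fold, log2 1.33 ± 0.20). The dimmer one read 518 in Th9+IFNgamma against 145 in Th9 (3.58-fold, log2 1.84 ± 0.21). Both were at least 2-fold higher, and the gap of 0.51 between them exceeded the spot-to-spot SD of 0.09 that probes with signals of 64 to 1000 showed. That SD is for repeated spots of the same probe and does not cover how different probes read a gene. It is smaller than the extraction errors of the probes' differences, 0.20 and 0.21. Both errors bear on the gap, which is less marked against them.

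Gbp8 was the only member within 2-fold. Its brighter probe read 3098 in Th9+IFNgamma against 1874 in Th9 (1.65-fold, log2 0.73 ± 0.20), and the other read 1118 in Th9+IFNgamma against 639 in Th9 (1.75-fold, log2 0.81 ± 0.20). The probes lay 0.08 apart, against a spot-to-spot SD of 0.05 for signals over 1000 and 0.09 for those of 64 to 1000. Over the alternatives the gene was 1.60-fold to 1.79-fold higher, and it stayed under 2-fold in all 13 settings, the main one included.

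**Figure D3:**
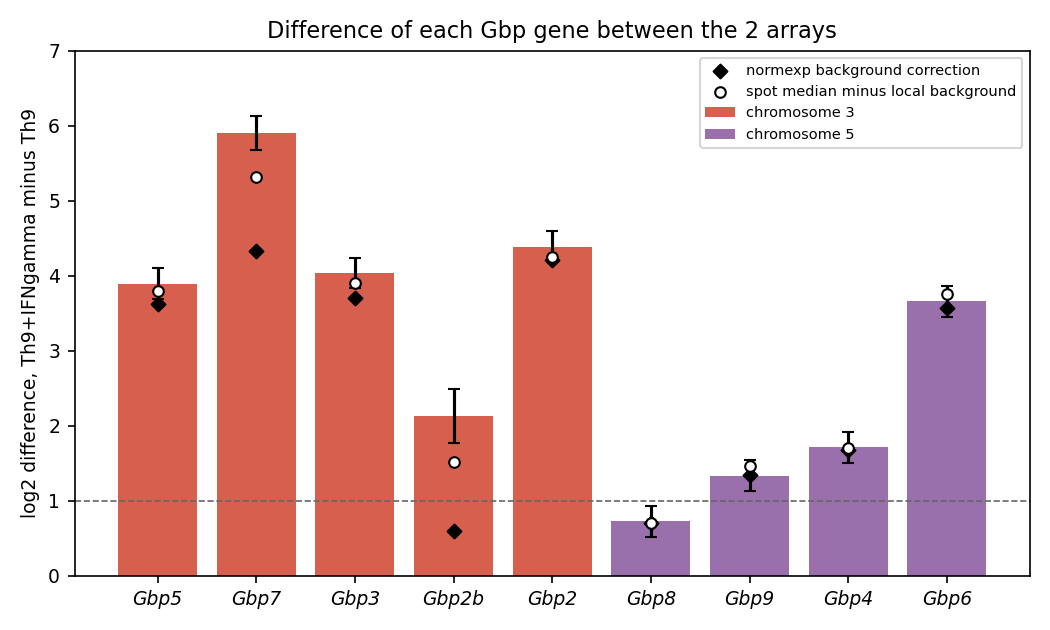
Log2 difference, Th9+IFNgamma minus Th9, of each Gbp gene by its brightest probe, in chromosomal order (bars, with the extraction software's error as whiskers), beside the values with normexp correction (diamonds) and with the local background subtracted from the spot median (circles). The dashed line marks 2-fold, Gbp8 stays under it at 0.73, and the diamonds of Gbp7 and Gbp2b fall furthest below their bars, at 4.33 and 0.60.

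By size of difference the order was Gbp7, Gbp2, Gbp3, Gbp5, Gbp6, Gbp2b, Gbp4, Gbp9 and Gbp8. Of the 8 steps in this order, those between Gbp3 and Gbp5 and between Gbp5 and Gbp6 were smaller than the combined error. The steps from Gbp7 to Gbp2, from Gbp6 to Gbp2b and from Gbp9 to Gbp8 were larger than 2 combined errors. Gbp2, Gbp3, Gbp5 and Gbp6 lay between 12.6-fold and 20.9-fold, below Gbp7, and Gbp2b, Gbp4 and Gbp9 between 2.52-fold and 4.37-fold, above Gbp8. With normexp the first of these large steps, between Gbp7 and Gbp2, was within the error. Only the place of Gbp2b moved with the settings, since it lay below Gbp4 in 2 of the 12 settings that measured it.

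The clusters overlapped in size. On chromosome 3, all 5 members reached 2-fold and 4 reached 8-fold, and the median log2 difference was 4.03. On chromosome 5, 3 of 4 reached 2-fold and 1 reached 8-fold, the median was 1.52, and Gbp6 exceeded Gbp2b. With the local background subtracted from the spot median Gbp2b lay below Gbp4 as well, and with normexp, at a log2 difference of 0.60, below all other members. The nearest measured protein-coding genes beside the chromosome 3 cluster were Pdlim5 (log2 -0.33) and Kyat3 (log2 -1.26), and those beside the chromosome 5 cluster were Abcg3 (log2 -0.22) and Lrrc8b (log2 -0.13), all 4 lower in Th9+IFNgamma. Of the next measured genes outward, Gtf2b (log2 0.25) and Lrrc8c (log2 0.74) were higher, within 2-fold, and Tspan5 (log2 -1.74) and Zfp951 (log2 -0.26) were lower.

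Among all 12272 measured genes ordered from the most to the least in favour of Th9+IFNgamma, Gbp7 was at place 4, Gbp2 at 13, Gbp3 at 18, Gbp5 at 24 and Gbp6 at 28. Gbp2b was at place 140, Gbp4 at 219, Gbp9 at 356 and Gbp8 at 1130, which put 9.2% of all genes above it. With 2 arrays, likeness between genes can only mean an equal difference. The genes just above and just below Gbp7 were Ly6c1 and Isg20, and those beside Gbp2 were Ms4a4b and Isg15. Gbp3 stood between Oas1a and Ifitm3, Gbp5 between the immunity-related GTPase genes Gm12250 and Tgtp1, and Gbp6 between Ly6c2 and 1500009L16Rik. Lower down, Gbp2b stood between Adgrg3 and Cdkn2c, Gbp4 between BC064078 and Mxd3, Gbp9 between Znrd1 and Cutc, and Gbp8 between Gpalpp1 and Cdc73.

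**Figure D4:**
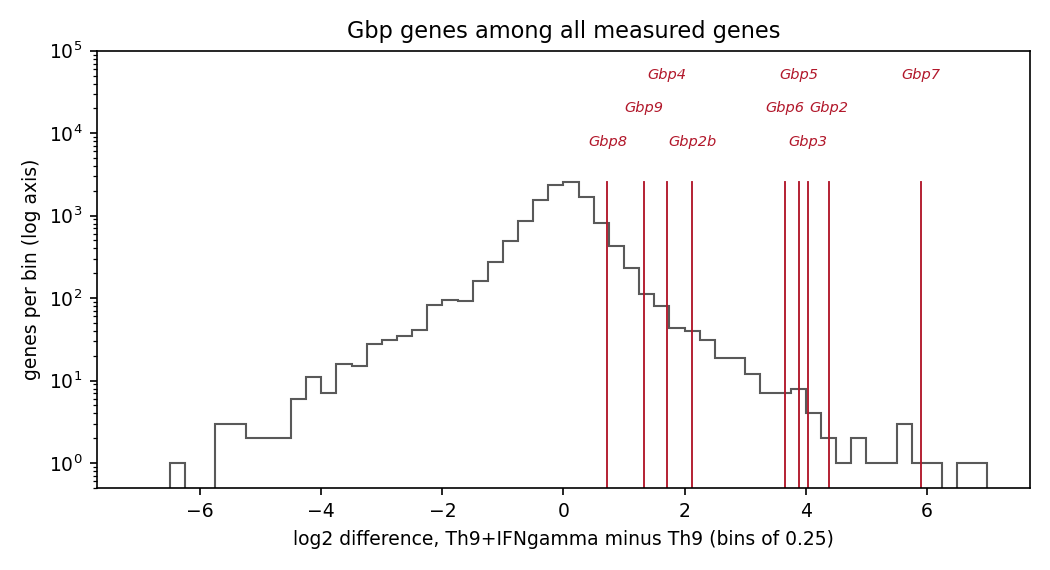
Number of genes (log axis) in each bin of 0.25 of the log2 difference, Th9+IFNgamma minus Th9, over the 12272 measured genes (grey outline), with the 9 Gbp genes as red lines. Gbp7, Gbp2, Gbp3, Gbp5 and Gbp6 stand in the sparse right tail, Gbp2b, Gbp4 and Gbp9 between 1.33 and 2.13, and Gbp8 at the edge of the central peak.

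In the pathway from the interferon-gamma receptor to the nucleus, transcription factors were among the genes with higher signals. Of 20 listed genes, all measured, 7 reached 2-fold towards Th9+IFNgamma and 2 towards Th9, and the median log2 difference was 0.80. Over all measured genes the shares were 5.15% towards Th9+IFNgamma and 7.42% towards Th9. Irf1 read 67689 in Th9+IFNgamma against 9272 in Th9 (7.30-fold). Irf7, a related factor, was 8.33-fold higher, Usp18, a negative regulator of interferon signals, 6.59-fold higher, and Ciita, the activator of MHC class II genes, 6.01-fold higher. Socs3, an inhibitor of cytokine signals, was 2.96-fold lower and Jak2 2.29-fold lower. The receptor chain genes Ifngr1 (28823 in Th9+IFNgamma, 15628 in Th9) and Ifngr2 (2133 in Th9+IFNgamma, 3227 in Th9) lay within 2-fold, as did Jak1. For the IL-4 pathway, Stat6 was within 2-fold, at 2684 in Th9+IFNgamma against 2977 in Th9.

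The immunity-related GTPases, which act beside GBPs on pathogen vacuoles in mouse cells, had large differences too. Of 8 listed, 6 had a named probe and each of these was higher by 2-fold or more. Their median log2 difference was 3.73, and Iigp1 led them at 103-fold, followed by Gm12250 (15.3-fold), Tgtp1 (14.7-fold) and Irgm1 (11.9-fold). Of 13 measured genes for other large GTPases of the dynamin superfamily and related proteins, 2 reached 2-fold towards Th9+IFNgamma, namely Gvin1 (5.02-fold), an interferon-inducible GTPase, and Ehd3 (4.48-fold), and Dnm1 was 2.75-fold lower. Their median was 0.01, and the shares over all measured genes were 5.15% higher and 7.42% lower. Atl1, for the GBP-related membrane GTPase atlastin-1, was above background in Th9+IFNgamma only, and at least 12.8-fold higher there. Dnm3 was above background in Th9 only, and at least 2.08-fold lower in the other culture.

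Genes for the machinery that GBPs use reached 2-fold in few cases, as did genes at large (5.15% higher and 7.42% lower), so that nothing particular to these lists is read from their counts. Of 9 genes for attachment and trimming of prenyl anchors, which the CaaX members need, 1 was at least 2-fold higher, Fntb (2.59-fold), the farnesyltransferase subunit, and the median was 0.05. Of 11 measured genes of ATG8 conjugation, which directs GBPs to vacuoles in mouse cells, 10 lay within 2-fold and Map1lc3a was 2.37-fold lower. The median was 0.01. Of 8 measured genes for other proteins found with GBP coats, 1 was at least 2-fold higher, the antibody receptor and ubiquitin ligase gene Trim21 (3.29-fold), with a median of 0.03. Ubd, a ubiquitin-like modifier, was above background in Th9+IFNgamma only, and at least 29.6-fold higher there.

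Of 11 inflammasome and pyroptosis genes with a probe, 7 were measured on both arrays and 4 (Aim2, Nlrc4, Il1b and Mefv) had no signal well above background in either culture. The gene at least 2-fold higher was Gsdmd, which encodes the pore-forming protein gasdermin D (2.05-fold), and the median was 0.29. Lineage genes were read as well, as a check of the labelled cultures. Of 8 Th1 genes, 6 reached 2-fold towards Th9+IFNgamma, with Tbx21, for the Th1 factor T-bet, at 36.1-fold, the related factor gene Eomes at 28.2-fold, the chemokine receptor gene Cxcr3 at 7.88-fold and the IL-18 receptor gene Il18r1 at 4.68-fold. Of 7 measured Th9 and Th2 genes, 3 reached it towards Th9. Among all measured genes 5.15% reached it towards Th9+IFNgamma and 7.42% towards Th9. Il9, the cytokine gene that names the Th9 state, read 5661 in Th9+IFNgamma against 59619 in Th9 (10.5-fold lower). The cytokine gene Il4 was 21.4-fold lower and Batf, for an AP-1 family factor, 3.39-fold lower, and Il5, above background in Th9 only, was at least 8.05-fold lower. Gata3 lay within 2-fold, at 4982 in Th9+IFNgamma against 6188 in Th9. The members and these lists were read from the same pair of arrays, so that their values are not independent of each other.

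**Figure D5:**
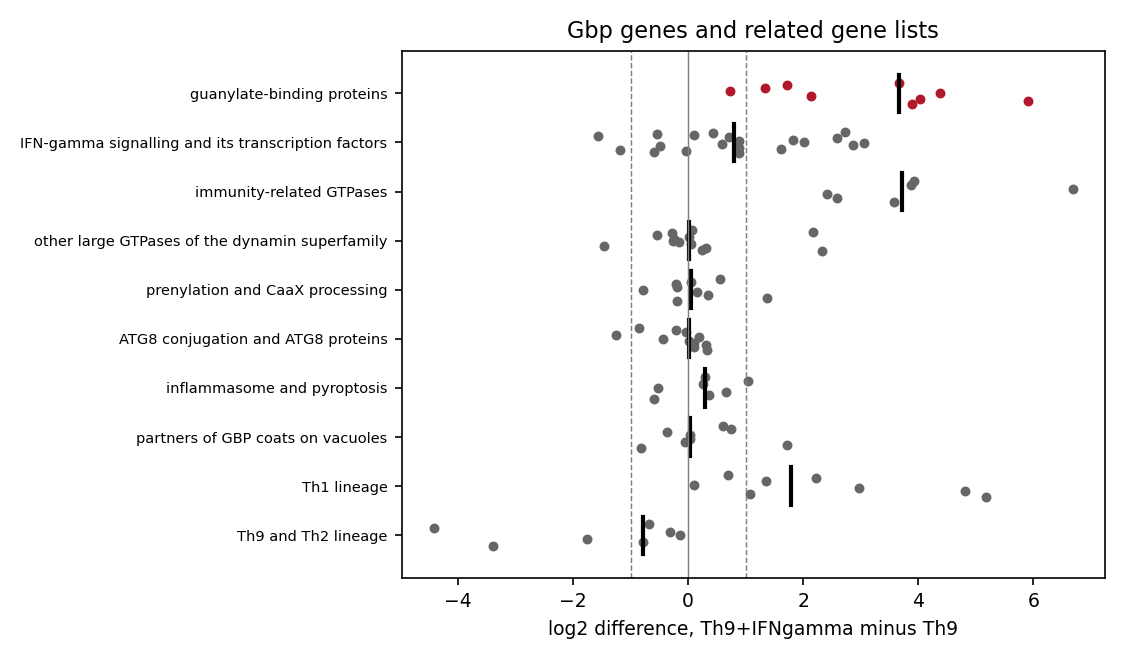
Log2 difference, Th9+IFNgamma minus Th9, of every gene measured on both arrays in the Gbp family (red) and in 9 related lists (grey), with black bars at the medians and dashed lines at 2-fold in either direction. The Gbp median of 3.66 and the median of the immunity-related GTPases of 3.73 lie furthest right, while the lists of prenylation, ATG8 and vacuole partner genes centre near 0.

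The cultures were bulk samples, in which more cells of a type and more RNA per cell cannot be told apart. T cell markers were present on both arrays, with 7 of 7 measured and a summed scaled signal of 130927 in Th9+IFNgamma against 121789 in Th9. Such a sum adds different probes, so bright probes dominate it, and it includes listed genes not above background. It compares a list with itself between the arrays and never one list with another. Of the T cell markers only Cd247 was at least 2-fold apart, at 11035 in Th9+IFNgamma against 5174 in Th9. Cd4 read 502 in Th9+IFNgamma against 444 in Th9. Cd8a, a marker of CD8 T cells, was also well above background, at 1338 in Th9+IFNgamma against 1074 in Th9. Macrophages make much GBP. Of 7 of their markers with a probe, Itgam, Lyz2, Fcgr1 and Mrc1 were above background in neither culture, and Csf1r, Cd14 and Adgre1 were above it in both. Adgre1 read 25.8 in Th9+IFNgamma against 186 in Th9 and carried most of the list's difference. The list summed to 97.3 in Th9+IFNgamma against 253 in Th9, and without Adgre1 to 71.5 in Th9+IFNgamma against 67.2 in Th9. The B cell list summed to 938 in Th9+IFNgamma against 1464 in Th9, and the dendritic cell list to 154 in Th9+IFNgamma against 171 in Th9. Cd79b made up most of the B cell sums, at 844 in Th9+IFNgamma and 1187 in Th9. For NK cells the sums were 5365 in Th9+IFNgamma and 4464 in Th9. Klrd1 made up nearly all of them, at 5215 in Th9+IFNgamma and 4331 in Th9. Ncr1 was above background in neither culture. Klrk1 read 128 in Th9+IFNgamma against 90.5 in Th9, and Klrb1c read 20.5 in Th9+IFNgamma against 39.2 in Th9. The neutrophil sums were 33.5 in Th9+IFNgamma and 47.4 in Th9. For endothelial and stromal cells the sums were 392 in Th9+IFNgamma and 342 in Th9, and their measured genes moved in opposite directions. Pecam1 read 276 in Th9+IFNgamma against 103 in Th9, and Col1a2 read 91.9 in Th9+IFNgamma against 201 in Th9. The other genes of that list were above background in neither culture. For erythroid cells and platelets the sums were 127 in Th9+IFNgamma and 64.7 in Th9, mostly Hba-a1 (120 in Th9+IFNgamma, 53.4 in Th9). The part of other cell types in the Gbp values was not tested.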

How the data were processed

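Total RNA (500 ng per sample) was amplified and labelled with Cy3, per the labels' protocols. The deposited intensity values come from version 10.7.3.1 of Agilent Feature Extraction, per the file headers, and from 10.7 per the submitters' processing notes. They are background-subtracted and detrended within each array, per the file headers, and were not scaled between arrays. Both arrays lay on 1 slide. The authors also deposited log2 values, which equal the log2 processed signals minus a constant per array for probes printed once (SD of the offset 2.5e-07 for Th9+IFNgamma and 2.2e-07 for Th9). Their column medians are -4.05 for Th9+IFNgamma and -3.93 for Th9, and they served as an alternative.

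Control spots and spots called outliers were left out, log2 signals of a probe's spots were averaged, and each array's 75th percentile (632 for Th9+IFNgamma, 567 for Th9) was subtracted. Scaled signals were put back on a common 75th percentile of 598.6. Probe accessions were matched without version to RefSeq genes of GRCm38.p6, and 27050 of 41171 probes (65.7%) matched 1 gene, 0 several. The array headers name mm9, so that only the RefSeq promoter windows carry coordinates. Each gene was read by the brightest of its probes that both arrays flagged as well above background. A gene flagged on 1 array has a bound, the bright signal over its dim signal or over the detection floor of the dim array, whichever is higher. No spot was saturated, and 60.6% of probes in Th9+IFNgamma and 59.9% in Th9 were well above background. Spots of 144 probes printed repeatedly differed between the arrays with an SD of 0.12 (log2) about their probe's mean. This SD was 0.23 where signals were under 64, 0.09 up to 1000 and 0.05 beyond. The number of arrays limits the precision.

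The members and gene lists were chosen with earlier results of these data known. All members are named with each probe, then the genes just beside each in the order of differences, and from each list the members at least 2-fold apart, at most the 4 furthest in each direction, plus Irf1, Tbx21, Gata3 and Stat6. One gene that this rule names is not reported here. Ifngr1, Ifngr2 and Jak1, the flanking genes and the cell type markers were named in addition. No test was made. Normexp was run in limma 3.58.1 with R 4.3.3 (offset 50), loess (span 0.4) with statsmodels 0.14.6, and the rest in Python 3.11.15. The gene-level steps were tested on simulated data.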

Additional observations from a re-analysis of the deposited data

How the results depend on the processing

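No Gbp member changed direction under the 12 alternatives. The count of members at least 2-fold higher was 7 with normexp (Gbp2b left it), 6 of 7 with signals of at least 100 on both arrays (Gbp2b and Gbp7 were not measured), and 8 under the others. The median of the members ran from 3.58 with normexp to 3.77 with median scaling, which also moved the median of all genes to 0.11. Moves beyond the extraction error were found for 4 members with normexp, 2 with the local background subtracted from the spot median and 1 with the mean over probes. Among all genes, 582 were at least 2-fold lower with normexp, 465 with signals of at least 100, and without a filter on dim probes 1205 were higher and 1788 lower, against 632 higher and 910 lower in the main setting. The stricter IRF-type letters were found in the same number of windows, 5, which follows from the T already seen in these matches. Normexp on mean spot signals could not be run because the scanner output used here holds median signals, which were used instead. Normexp on medians, the signal before detrending and the local background subtraction were chosen after seeing the data. No paired analysis was possible because each condition has 1 array. Signal over background limits Gbp2b and Gbp7, whose Th9 spots read 75 and 102 over a local background of 52.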

Other observations

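The IRF-type letters of the Gbp promoters were also counted over the other measured genes with a promoter entry, as a description with no test. Of 9861 such genes outside the family, 5.18% reached 2-fold towards Th9+IFNgamma. Of 350 with the IRF-type match in a window, 14.9% did, and of 94 with its stricter form (a T as the second middle base), 27.7% did. Of 834 genes with the GAS letters TTCNNNGAA the share was 7.07%, and of 53 with both of these in the same window it was 22.6%. The STAT6-type match stood in windows of 648 genes, of which 5.71% reached 2-fold. Most genes with any of these letters were within 2-fold or lower, the median log2 difference being 0.13 for the IRF-type match and 0.34 for its stricter form. Whether the letters have a part in the differences was not tested.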
